A study of Mus musculus with 26 samples.

Results

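The 10 genes described here encode parts of the MHC class I antigen presentation machinery and the immunoproteasome: H2-K1, H2-D1, B2m, Tap1, Tap2, Tapbp, Psmb8, Psmb9, Psmb10 and Nlrc5. They are a list of gene symbols, drawn up with earlier results of these data known, and all 10 were among the 12948 genes listed for fibroblasts and the 11822 genes listed for macrophages. All 10 also passed the filter on low values in both cell types.

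Messenger RNA was read from its 3' end in 26 libraries, all made from cultured cells of BALB/c mice that were 8 weeks old. The fibroblasts came from normal mammary fat pads pooled from 2 females per replicate, were depleted of CD45+ and EpCAM+ cells and were expanded for 7 days. The macrophages were grown from female bone marrow for 7 days with 20% L929-conditioned medium, so both cell types had been cultured before the experiment. Cells were grown on collagen I, alone (mono-culture) or with the other type (co-culture), in DMEM or in medium that 4T1 cells, from a mammary tumour of the mouse, had conditioned (4T1 CM). The labels name no engineered allele in any group. Co-cultures were sorted after 7 days, into live cells without F4/80 or CD11b (fibroblasts) and live cells with both markers (macrophages), while the harvest day of the mono-cultures is not given in the labels. Fibroblasts grown alone gave 3 libraries in DMEM and 2 in 4T1 CM, and those from co-culture gave 3 in DMEM and 4 in 4T1 CM. Macrophages gave 3 libraries at day 0, 4 when grown alone in 4T1 CM, and 3 and 4 from co-culture in DMEM and in 4T1 CM. The 3 day 0 libraries are headed DMEM without a partner in the expression table and titled day 0 in the labels, so each comparison with them is with either the cells before the experiment or a mono-culture in DMEM.

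MHC class I molecules carry short peptides from inside the cell to its surface, where CD8+ T cells read them. Proteasomes cut proteins into such peptides, and interferon-gamma exchanges the catalytic subunits of the constitutive proteasome for those of the immunoproteasome. The peptides then enter the endoplasmic reticulum through the TAP transporter and are loaded onto a heavy chain paired with beta-2-microglobulin. H2-K1 and H2-D1 encode classical heavy chains, and B2m encodes beta-2-microglobulin. Tap1 and Tap2 encode both chains of the transporter, and Tapbp encodes tapasin, which holds the heavy chain to it. Psmb8, Psmb9 and Psmb10 encode the catalytic immunoproteasome subunits, which take the places of the products of Psmb5, Psmb6 and Psmb7. Nlrc5 encodes a transactivator of class I genes.

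Of the 10 genes, 7 lie on chromosome 17 in the mm10 build (GENCODE vM21). H2-K1 is at chr17:33996017-34000347 and Tapbp at chr17:33915899-33929292. Psmb9 (chr17:34181987-34187764), Tap1 (chr17:34187553-34197225), Psmb8 (chr17:34197721-34201454) and Tap2 (chr17:34203527-34216321) are neighbours, and H2-D1 is at chr17:35262730-35267499. B2m is at chr2:122147686-122153083, Psmb10 at chr8:105935735-105938444 and Nlrc5 at chr8:94434356-94527272. Psmb9 and Tap1 run in opposite directions, and by these positions their 5′ parts overlap by 212 bases.

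Promoter windows from RefSeq (GRCm38.p6, 250 bases before to 50 after the start RefSeq gives) were found for 8 of the 10 genes. RefSeq and GENCODE place some starts differently. For B2m, H2-K1 (the window shown, 1 of 2) and Tap1 the RefSeq start is 0 to 3 bases inside the GENCODE gene. For H2-D1 it is 364 and for Psmb8 474 bases inside, so the windows of these 2 genes lie wholly within the positions given above. Those of 5 genes are shown because they belong to the genes whose RNA moved together (H2-K1, H2-D1, Psmb8), to the heavy chains' partner B2m, which did not follow them in fibroblasts, and to Tap1, whose window shares 275 bases with that of Psmb9 on the other strand. Each is printed 5′ to 3′ on the gene's own strand. Capitals mark matches, on either strand, to the interferon-stimulated response element core, searched as 2 copies of GAAA with any 2 bases between them, the gamma-activated site TTCNNNGAA, the CCAAT box CCAAT and the X2 box core TGACG. The B2m window is chr2:122147437-122147736 (plus strand), that of H2-K1 chr17:34000298-34000597 (minus strand), that of H2-D1 chr17:35262844-35263143 (plus strand), that of Psmb8 chr17:34197945-34198244 (plus strand) and that of Tap1 chr17:34187306-34187605 (plus strand).
B2m: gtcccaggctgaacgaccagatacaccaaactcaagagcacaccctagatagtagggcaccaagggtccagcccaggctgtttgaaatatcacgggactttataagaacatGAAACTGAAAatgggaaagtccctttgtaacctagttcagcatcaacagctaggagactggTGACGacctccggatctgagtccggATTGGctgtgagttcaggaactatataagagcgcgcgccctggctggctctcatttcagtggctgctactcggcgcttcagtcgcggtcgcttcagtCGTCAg
H2-K1: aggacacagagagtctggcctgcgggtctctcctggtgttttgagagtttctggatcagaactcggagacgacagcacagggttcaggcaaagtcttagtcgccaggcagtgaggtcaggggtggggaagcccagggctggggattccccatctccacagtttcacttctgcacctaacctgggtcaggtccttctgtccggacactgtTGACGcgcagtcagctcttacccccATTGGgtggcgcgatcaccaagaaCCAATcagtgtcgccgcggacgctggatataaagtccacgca
H2-D1: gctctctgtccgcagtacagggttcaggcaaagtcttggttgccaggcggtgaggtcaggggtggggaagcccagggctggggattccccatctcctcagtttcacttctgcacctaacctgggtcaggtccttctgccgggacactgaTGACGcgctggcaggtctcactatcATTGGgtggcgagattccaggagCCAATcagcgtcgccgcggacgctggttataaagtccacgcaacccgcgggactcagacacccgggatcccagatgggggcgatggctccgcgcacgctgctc
Psmb8: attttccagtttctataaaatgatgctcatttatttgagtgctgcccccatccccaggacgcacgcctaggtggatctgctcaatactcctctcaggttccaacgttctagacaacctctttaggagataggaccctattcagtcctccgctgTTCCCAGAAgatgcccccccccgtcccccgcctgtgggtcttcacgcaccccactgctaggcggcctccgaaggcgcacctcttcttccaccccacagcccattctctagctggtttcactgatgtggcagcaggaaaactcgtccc
Tap1: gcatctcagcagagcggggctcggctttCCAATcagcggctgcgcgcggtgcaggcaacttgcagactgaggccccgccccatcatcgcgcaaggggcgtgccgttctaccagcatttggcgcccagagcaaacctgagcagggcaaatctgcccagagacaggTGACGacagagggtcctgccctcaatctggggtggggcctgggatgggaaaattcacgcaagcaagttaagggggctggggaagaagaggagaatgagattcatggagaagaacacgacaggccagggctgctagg

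Of 32851 mouse promoter windows of this length, 3.44% hold the paired GAAA core, 8.3% TTCNNNGAA, 37.4% CCAAT and 20.8% TGACG. B2m was the member with a match to the paired GAAA core, beginning at position -139 from the RefSeq start, and Psmb8 the member with a TTCNNNGAA match, beginning at -97. In H2-K1 a TGACG match at -41 is followed by an inverted CCAAT box at -16 and a forward one at 9. Counted from the second RefSeq start of H2-K1, 14 bases inside the GENCODE gene, they are at -55, -30 and -6. H2-D1 holds the same order, TGACG at -101 and CCAAT boxes at -76 and -53. Aligned end to end, the windows of both genes are identical in 218 of 361 columns (60.4%). Columns with a gap count as not identical, and the windows are shifted against each other, so this percentage understates the likeness of the shared stretch. The window of Psmb10 held none of these letters, which says only that they are not in this window. Only exact matches were marked, so windows without one may still hold a variant of an element. This includes those of H2-K1 and H2-D1 for the paired GAAA core. No marked matches overlapped, and a match is a description, not a binding site.

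Each fibroblast library held 1945980 to 7632366 reads and each macrophage library 1434695 to 4140985, and values below are the authors' normalized reads per gene. All 20 fibroblast markers had reads in each fibroblast group and all 22 macrophage markers in each macrophage group. RNA of the partner cell was also present. As a measure of it, each marker of the partner was set in percent of its level in partner cells sorted from co-culture in the same medium, and the median of these percentages was taken as the partner share. The partner part of a gene's reads is this share times the partner's level of that gene. Macrophage RNA made up 0.872 to 1.86% by this measure in fibroblasts from co-culture in DMEM, 0.0207 to 0.492% in those from co-culture in 4T1 CM, 0.154 to 0.202% in those grown alone in 4T1 CM and 0.0109 to 0.0365% in those grown alone in DMEM. Ptprc, which encodes CD45, was at 0 in all 3 of the latter. Fibroblast RNA made up 2.91 to 19.4% in macrophages from co-culture in 4T1 CM, where replicate 3 was highest, 1.94 to 6.91% in those from co-culture in DMEM, and at most 0.201% in the others. In bulk RNA, fewer cells of a type and less RNA per cell cannot be told apart.

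Compared in CPM, counts scaled to the listed total of each library, every member was higher in macrophages than in fibroblasts by its range of group means, except Tap2. H2-D1 spanned 5755 to 7509 in macrophages and 486 to 1166 in fibroblasts. B2m spanned 2121 to 2557 and 226 to 425, and Psmb9 spanned 105 to 162 and 4.73 to 17.8. Nlrc5 spanned 15.9 to 29.2 and 0.701 to 1.81, while Tap2 spanned 59.1 to 77.0 and 52.7 to 73.4. The 2 tables were normalized separately and hold different cells, so these levels were set side by side without a test.

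In fibroblasts grown alone, 4T1 CM was followed by a rise of both heavy chain genes and 2 of the 3 immunoproteasome subunits, while B2m, Psmb10 and Nlrc5 were not among the genes called. With limma on the log2(normalized reads + 1) scale and a threshold of 0.05 on the adjusted p over all 12401 genes, 4 of the 10 genes rose and 0 fell. Of all genes tested, 13.3% were called in either direction, 6.36% higher and 6.93% lower. The median log2 fold change over the 10 genes was 0.66, against -0.01 over all genes tested. In 7 of the 10 genes both libraries in 4T1 CM lay above all 3 in DMEM, and in 1 they lay below, as did 22.8% and 23.8% of all genes.

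H2-K1 read 772, 794 and 736 in the 3 libraries in DMEM and 2379 and 1857 in the 2 in 4T1 CM. The groups did not overlap, and the rise was 2.74-fold (log2 fold change 1.45 ± 0.26 (SE), adjusted p = 0.00293). H2-D1 read 1807, 2047 and 1883 in DMEM and 4017 and 5299 in 4T1 CM. Every library in 4T1 CM was again above every library in DMEM, with a 2.42-fold rise (log2 fold change 1.27 ± 0.20 (SE), adjusted p = 0.00127). Both calls were kept in each of the 5 fits that left out 1 library. For these genes the counted reads are uncertain in 1 respect. The heavy chain genes belong to a family of similar copies, 9.53% of the 50-base windows in the last 500 bases of H2-D1 and 0.443% of those of H2-K1 occur in other genes, and BALB/c mice carry other class I alleles than the reference strain.

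B2m, whose product pairs with these heavy chains, went the other way without passing the test. It read 2236, 1464 and 1302 in DMEM and 1281 and 799 in 4T1 CM, so that every library in 4T1 CM was below every library in DMEM. Its log2 fold change was -0.68 ± 0.46 (SE, adjusted p = 0.352), and its 3 libraries in DMEM spread widely. The ratio of H2-K1 to B2m reads was 0.484 ± 0.121 in DMEM and 2.09 ± 0.331 in 4T1 CM. Reads of different genes are not corrected for length, so only the movement of this ratio between groups can be read.

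Among the transport and loading genes, none passed the test. Tap1 read 145, 142 and 127 in DMEM and 172 and 276 in 4T1 CM (log2 fold change 0.66 ± 0.22 (SE), adjusted p = 0.0614). Tap2 read 204, 221 and 196 against 282 and 304 (log2 fold change 0.50 ± 0.16 (SE), adjusted p = 0.0515), and Tapbp read 533, 566 and 589.7 against 908 and 872 (log2 fold change 0.66 ± 0.25 (SE), adjusted p = 0.0919). These 3 are among the 7 genes without overlap counted above. With the count test of edgeR on recovered reads Tap1 was called (adjusted p = 0.0488), and with limma on these 2 groups alone Tapbp was (adjusted p = 0.0119).

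The immunoproteasome subunits separated. Psmb8 read 183, 236 and 221 in DMEM and 539 and 766 in 4T1 CM, a 3.02-fold rise with no overlap (log2 fold change 1.60 ± 0.22 (SE), adjusted p = 0.000652), and was called in all 5 fits that left out 1 library. Psmb9 read 14.3, 28.4 and 13.1 in DMEM and 49.4 and 93.2 in 4T1 CM, also without overlap (log2 fold change 1.90 ± 0.48 (SE), adjusted p = 0.0198). Its level was low, and the call was lost without replicate 2 in 4T1 CM (adjusted p = 0.135) and without replicate 1 or 3 in DMEM (adjusted p = 0.0700 and 0.0629). Psmb10 read 253, 209 and 277 against 237 and 272, and the groups overlapped (log2 fold change 0.05 ± 0.19 (SE), adjusted p = 0.884, interval -0.32 to 0.43 at 2 SE). Nlrc5, the transactivator, read 9.72, 4.06 and 3.85 in DMEM and 3.95 and 1.65 in 4T1 CM, resting on 2 to 19 reads a library, and was not called (log2 fold change -0.82 ± 0.67 (SE), adjusted p = 0.45).

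The macrophage part of the reads was at most 1.77% for any member in fibroblasts grown alone in 4T1 CM, apart from Nlrc5 at 5.96 to 10.9%. Of 19 macrophage markers tested, 3 were called higher in this comparison, and the marker list summed to 47.9 to 61.6 CPM in DMEM and 175 to 187 in 4T1 CM. Of 20 fibroblast markers 4 were called higher and 3 lower, with 1 of the 4 defining ones higher. Of 5 endothelial markers 1 was called lower, and the 1 dendritic marker tested was called higher. The part of these markers in the members' values was not tested.

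**Figure D1:**
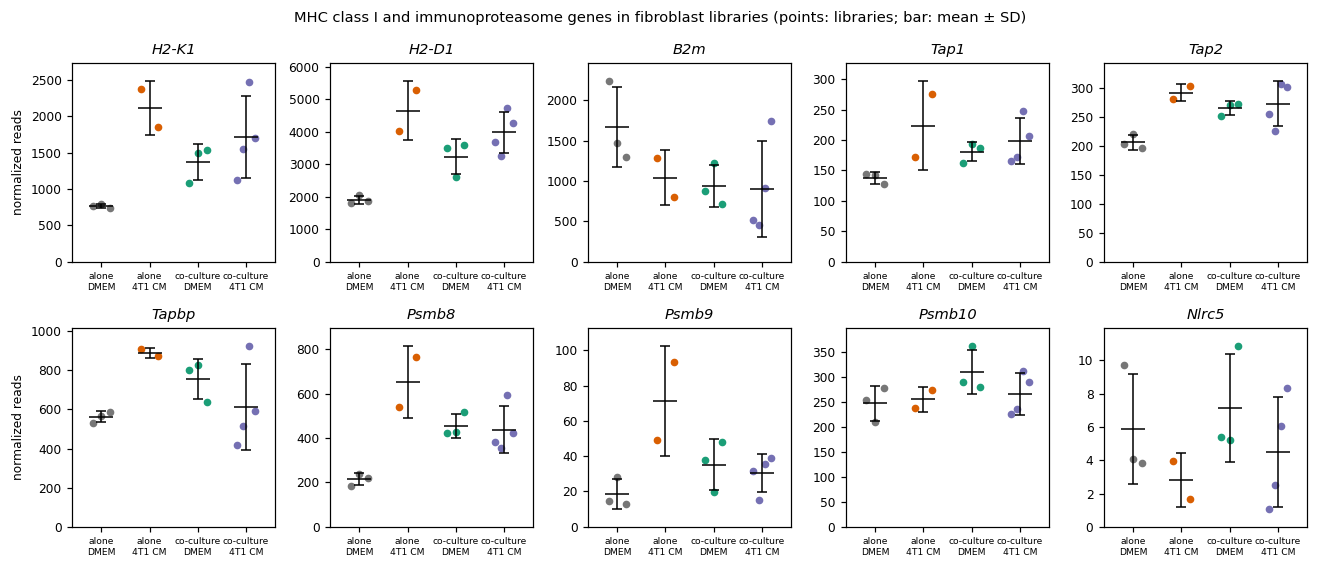
Normalized reads (vertical axes, from 0) of the 10 genes in the 12 fibroblast libraries by group, with points for libraries and black bars for the mean ± SD. H2-K1, H2-D1 and Psmb8 were lowest in the 3 libraries grown alone in DMEM, where B2m had its highest mean.

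Co-culture with macrophages in DMEM was followed by a rise of 1 of the 10 genes, Psmb8. This comparison uses the same 3 control libraries as the one above. Of all 12401 genes, 1.00% were called, 0.855% higher and 0.145% lower, and the median log2 fold change was 0.40 over the members and 0.00 over all genes. All 3 co-culture libraries lay above all 3 mono-culture libraries in 7 of the 10 genes and below in 1, as they did in 10.4% and 8.42% of all genes. Psmb8 read 422, 426 and 518 in co-culture, above all 3 libraries grown alone, a 2.13-fold rise (log2 fold change 1.09 ± 0.20 (SE), adjusted p = 0.0193). The call was lost in 5 of the 6 fits that left out 1 library, with adjusted p from 0.0569 to 0.107, and was kept without co-culture replicate 1. The macrophage part of the Psmb8 reads was 3.19 to 5.68% in these libraries. Of 19 macrophage markers 14 were called higher, their sum was 744 to 1645 CPM, and their part in the other members' differences was not tested.

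The heavy chains were also above the mono-culture libraries without passing the test. H2-K1 read 1084, 1497 and 1541 in co-culture (log2 fold change 0.82 ± 0.23 (SE), adjusted p = 0.134) and H2-D1 read 3494, 2619 and 3611 (log2 fold change 0.75 ± 0.17 (SE), adjusted p = 0.0673), and neither gene's groups overlapped. With these 2 groups alone in the fit both were called, at an adjusted p of 0.0214 and 0.0386. The macrophage part was up to 5.56% of the H2-K1 reads and up to 12.4% of the H2-D1 reads. B2m read 871, 1218 and 715, below all 3 mono-culture libraries (log2 fold change -0.83 ± 0.41 (SE), adjusted p = 0.489), and the macrophage part of its reads was 7.24 to 21.9%. Tap1, Tap2, Tapbp and Psmb10, also without overlap, did not pass the test at log2 fold changes of 0.39, 0.36, 0.42 and 0.33, with adjusted p from 0.351 to 0.531. Psmb9 and Nlrc5 overlapped between the groups, at adjusted p of 0.486 and 0.922.

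In 4T1 CM, co-culture was not followed by a call in any of the 10 genes. By limma 0 of 10 were called, with 0.0242% of all genes called, and edgeR on recovered reads also called 0. At an unadjusted p under 0.05 there were 3, Tapbp, Psmb8 and Psmb9, all with a negative log2 fold change, and 1155 of all 12401 genes. Co-culture lay wholly above mono-culture in 0 of the 10 genes and wholly below in 1, against 7.86% and 7.18% of all genes. Psmb8 read 381, 355, 593 and 424 in co-culture against 539 and 766 alone, with 1 co-culture library inside the range of those grown alone (log2 fold change -0.58 ± 0.21 (SE), adjusted p = 0.436). Psmb9 read 31.3, 14.9, 35.6 and 39.2 against 49.4 and 93.2, without overlap (log2 fold change -1.22 ± 0.46 (SE), adjusted p = 0.446). Tapbp read 418, 515, 924 and 592, with replicate 3 above both libraries grown alone (log2 fold change -0.60 ± 0.23 (SE), adjusted p = 0.467). H2-K1 read 1129.6, 1552, 2473 and 1706 and H2-D1 3680.0, 3272, 4721 and 4261, and both overlapped with mono-culture, with intervals at 2 SE of -0.84 to 0.14 and -0.60 to 0.15. B2m read 512, 453, 909.8 and 1738, with replicates 1 and 2 below every library of the other groups and replicate 4 within the range of mono-culture in DMEM. The intervals were -0.57 to 0.26 for Tap1, -0.41 to 0.19 for Tap2, -0.31 to 0.40 for Psmb10 and -0.91 to 1.64 for Nlrc5, with adjusted p from 0.845 to 0.961. Of 19 macrophage and 20 fibroblast markers, 0 were called by limma.

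Within co-culture, 4T1 CM against DMEM gave 0 calls among the 10 genes with limma, where 5.85% of all genes were called, 2.33% higher and 3.52% lower. No member had an unadjusted p under 0.05, against 2370 of all 12401 genes, and edgeR on recovered reads called 0 members. The intervals at 2 SE for H2-K1, H2-D1 and Psmb8 were -0.15 to 0.71, -0.03 to 0.63 and -0.45 to 0.29 on the log2 scale. The rises of these genes in mono-culture, 1.45, 1.27 and 1.60, lie outside them, but carry an error of their own. Whether the effects differ is tested by the interaction given below. There limma did not call H2-K1 (adjusted p = 0.165) or H2-D1 (adjusted p = 0.132). Psmb8 was called (adjusted p = 0.0342), but not in 9 of the 12 fits that left out 1 library. Tapbp, at -0.36, was called lower without co-culture replicate 3 in 4T1 CM (log2 fold change -0.58, adjusted p = 0.0381). The other log2 fold changes were -0.23 for B2m, 0.11 for Tap1, 0.03 for Tap2, -0.21 for Psmb9, -0.23 for Psmb10 and -0.74 for Nlrc5, with adjusted p from 0.489 to 0.938. All 10 genes overlapped between the groups, while 7.06% of all genes lay wholly higher and 9.13% wholly lower in 4T1 CM.

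Markers of other cells moved in this comparison. Of 19 macrophage markers tested 15 were called lower in 4T1 CM, 3 of the 4 defining ones among them, and the list summed to 744 to 1645 CPM in DMEM and 61.1 to 330.0 in 4T1 CM. Of 5 endothelial markers 3 were called lower, with sums of 26.8 to 91.9 and 2.03 to 7.01 CPM. Of 20 fibroblast markers 2 were higher and 6 lower, and 0 of the 4 defining ones were called. The macrophage part of the H2-D1 reads was 5.88 to 12.4% in DMEM and 0.112 to 3.54% in 4T1 CM, and that of the B2m reads 7.24 to 21.9% and 0.109 to 10.2%. The part of these markers in the members' values was not tested.

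Whether the effect of 4T1 CM differed between co-culture and mono-culture was tested as an interaction, and 1 of the 10 genes was called where 0.145% of all genes were, 0.0323% with a positive and 0.113% with a negative interaction. The log2 fold change of Psmb8 with 4T1 CM was 1.60 in cells grown alone and -0.08 in co-culture, with an interaction of -1.67 ± 0.29 (SE, adjusted p = 0.0342). The call was lost with edgeR on recovered reads (adjusted p = 0.0548), with the replicate number as a block (adjusted p = 0.0534) and in 9 of the 12 fits that left out 1 library (adjusted p from 0.0588 to 0.129), and kept without mono-culture replicate 2 in 4T1 CM and without co-culture replicate 2 or 3 in 4T1 CM. The estimate was negative for 8 of the 10 genes and positive for 2. Negative ones without a call were those of H2-K1 (-1.17, adjusted p = 0.165), H2-D1 (-0.97, 0.132), Tapbp (-1.02, 0.206) and Psmb9 (-2.10, 0.182), as well as Tap1 (-0.54, 0.477), Tap2 (-0.47, 0.38) and Psmb10 (-0.28, 0.684). Those of B2m (0.45, adjusted p = 0.805) and Nlrc5 (0.09, 0.979) were positive. The median over the 10 genes was -0.76, against 0.00 over all genes. Of 19 macrophage markers 2 had a called negative interaction, and the median over that list was -4.81.

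In macrophages the heavy chains, tapasin and all 3 immunoproteasome subunits were lower in co-culture than in mono-culture in 4T1 CM, the medium in which both cultures exist. The quasi-likelihood test of edgeR on raw counts called 6 of 10 genes lower and 0 higher. Of all 10088 genes, 26.0% were called in either direction and 11.9% were called lower. All 4 co-culture libraries lay below all 4 mono-culture libraries in 5 of the 10 genes and above in 0, as they did in 11.5% and 14.7% of all genes. The median log2 fold change was -0.54 over the 10 genes and 0.03 over all genes.

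Psmb10 fell the most of the members, from 1118, 1046, 1227 and 1090.0 normalized reads in mono-culture to 506, 431, 405 and 381 in co-culture. All 4 co-culture libraries were below all 4 mono-culture libraries, and the level was 2.63 times higher in mono-culture (log2 fold change -1.40 ± 0.12 (SE), adjusted p = 1.39e-06). Psmb9 read 565, 569, 379.6 and 464 in mono-culture and 287, 284, 239 and 327 in co-culture, without overlap (log2 fold change -0.81 ± 0.17 (SE), adjusted p = 0.00213). Psmb8 read 1614, 1692, 1806 and 1641 against 1278, 1241, 1109 and 1146, also without overlap (log2 fold change -0.51 ± 0.12 (SE), adjusted p = 0.00443). Their constitutive counterparts Psmb5, Psmb6 and Psmb7 were not called. In mono-culture the ratio of Psmb10 to Psmb7 reads was 5.12 ± 1.09, against 1.95 ± 0.332 in co-culture, and that of Psmb9 to Psmb6 was 0.409 ± 0.0899 and 0.272 ± 0.0498 (SD, n = 4). The Psmb9 to Psmb6 ratio overlapped between the groups, with mono-culture replicate 3 at 0.278 and co-culture replicates 1 and 4 at 0.294 and 0.328. The ratio of Psmb8 to Psmb5 overlapped too, at 5.84 ± 2.87 and 4.83 ± 0.869.

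H2-K1 read 5272, 4085, 5091 and 3468 in mono-culture and 2093, 2733, 3132 and 3028 in co-culture, without overlap (log2 fold change -0.72 ± 0.16 (SE), adjusted p = 0.00359). H2-D1 read 25838, 24191, 24424 and 17477 against 12524, 13610.4, 14621 and 21549.9, and replicate 4 of the co-culture lay within the mono-culture range (log2 fold change -0.57 ± 0.18 (SE), adjusted p = 0.0258). The H2-D1 call was lost in 6 of the 8 fits that left out 1 library, all but those without replicate 4 of either group, with adjusted p up to 0.0799. It was also lost with only these 2 groups in the fit (adjusted p = 0.0565). Tapbp read 2792, 2681, 3081 and 3092 in mono-culture and 1554, 1569, 1595 and 2210.2 in co-culture, with a fall that left no overlap (log2 fold change -0.76 ± 0.14 (SE), adjusted p = 0.000673).

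The remaining 4 genes were not called. B2m read 6651, 10047, 8921 and 5614 in mono-culture and 6104, 5239.8, 4723 and 8788 in co-culture (log2 fold change -0.34 ± 0.21 (SE), adjusted p = 0.263). Tap1 read 195, 236, 280.4 and 224 against 201, 204, 204 and 249.9, and Tap2 read 192, 198, 286 and 192 against 223, 198, 218 and 196. Their intervals at 2 SE were -0.40 to 0.13 and -0.42 to 0.26. Nlrc5 read 74.9, 69.4, 79.4 and 70.9 against 91.8, 81.6, 63.7 and 79.2, with an interval of -0.23 to 0.40. Each of these 4 genes overlapped between the groups.

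Macrophage markers moved with these genes, since 12 of 21 tested were called lower in co-culture and 1 higher. Adgre1, which encodes F4/80, read 2483, 2183, 2174 and 2743 in mono-culture and 684, 1078, 820.4 and 1088 in co-culture. The macrophage list summed to 75954 to 84891 CPM in mono-culture and 50264 to 63203 in co-culture, and no defining marker was at 0. All 19 fibroblast markers tested were higher in co-culture, with sums of 20.5 to 144 in mono-culture and 4153 to 13877 in co-culture. The part of the macrophage markers in the falls was not tested. The fibroblast part was 1.03 to 8.56% of the Psmb10 reads and 1.37 to 7.16% of the H2-K1 reads in the co-culture libraries. The fibroblast share of these libraries was 2.91 to 19.4%. Such RNA also takes up part of the read total, and the part of this share in the falls was not tested. Without replicate 3 of the co-culture, in which fibroblast RNA was highest, 5 of the 6 calls were kept. The log2 fold changes were then -1.36 for Psmb10, -0.78 for H2-K1, -0.72 for Tapbp, -0.73 for Psmb9 and -0.48 for Psmb8, while H2-D1, at -0.54, lost its call (adjusted p = 0.0651).

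**Figure D2:**
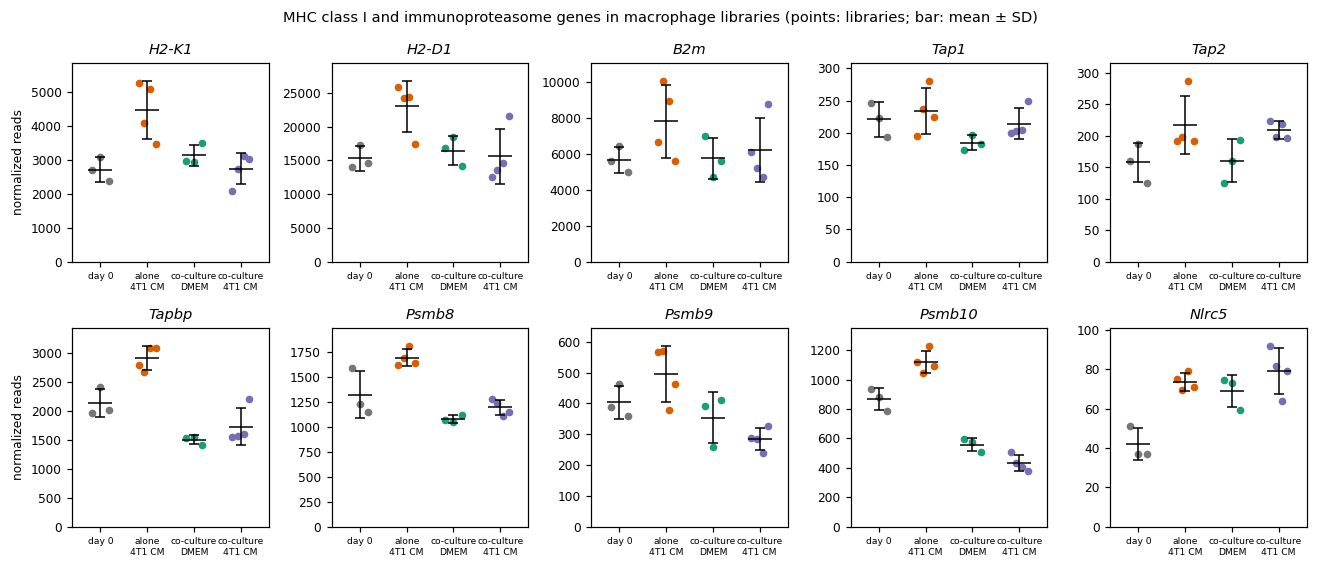
Normalized reads (vertical axes, from 0) of the 10 genes in the 14 macrophage libraries by group, with points for libraries and black bars for the mean ± SD. All co-culture libraries lay below all others for Psmb10, and the 4 libraries grown alone in 4T1 CM were highest for Tapbp and Psmb8.

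Macrophages grown alone in 4T1 CM were compared with the day 0 libraries, with the same mono-culture libraries as in the comparison with co-culture. If the day 0 libraries are cells before the experiment, time in culture and 4T1 CM cannot be told apart in this comparison. Here 6 of 10 genes were higher and 0 lower by edgeR, where 21.9% of all genes were called in either direction and 11.1% were called higher. The median was 0.49 over the 10 genes and 0.04 over all genes. All 4 mono-culture libraries lay above all 3 day 0 libraries in 7 of the 10 genes and below in 0, as they did in 13.5% and 15.8% of all genes. H2-K1 read 2693, 3097 and 2368 at day 0, below all 4 mono-culture libraries (log2 fold change 0.75 ± 0.18 (SE), adjusted p = 0.00535). Nlrc5 read 51.3, 37.2 and 37.2, again below all 4, with a 1.80-fold rise (log2 fold change 0.85 ± 0.17 (SE), adjusted p = 0.00185). These 2 calls were kept in all 7 fits that left out 1 library.

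The other 4 calls did not hold in every such fit. H2-D1 read 13952, 17312 and 14575 at day 0 (log2 fold change 0.62 ± 0.20 (SE), adjusted p = 0.0309), Tapbp 1972, 2407 and 2021 (log2 fold change 0.48 ± 0.15 (SE), adjusted p = 0.028), Psmb8 1586, 1224 and 1152 (log2 fold change 0.39 ± 0.13 (SE), adjusted p = 0.0408) and Psmb10 937, 885 and 787 (log2 fold change 0.40 ± 0.13 (SE), adjusted p = 0.0355). In each, all 4 mono-culture libraries were above all 3 day 0 libraries. Among the 7 fits that left out 1 library, H2-D1 kept its call only without day 0 replicate 2 or mono-culture replicate 4, and Tapbp only without replicate 2 of either group. Psmb8 and Psmb10 kept theirs only without day 0 replicate 1. In the other fits the adjusted p reached 0.118 for H2-D1, 0.107 for Tapbp, 0.200 for Psmb8 and 0.158 for Psmb10. With median-of-ratios factors Psmb8 and Psmb10 were not called (adjusted p = 0.0632 and 0.0524), nor with only these 2 groups in the fit (adjusted p = 0.0967 and 0.0609). With the replicate number as a block H2-D1, Tapbp and Psmb8 were not called (adjusted p = 0.0577, 0.0707 and 0.0640). Tap2 read 160.0, 187 and 125 (log2 fold change 0.50 ± 0.18 (SE), adjusted p = 0.059), B2m 5595, 6421 and 4997 (log2 fold change 0.50 ± 0.23 (SE), adjusted p = 0.152), Psmb9 388, 463 and 361 (log2 fold change 0.33 ± 0.18 (SE), adjusted p = 0.232) and Tap1 247, 223 and 193 (log2 fold change 0.12 ± 0.14 (SE), adjusted p = 0.626). Of 21 macrophage markers tested, 11 were called higher and 1 lower in this comparison. The 1 T and NK and the 1 endothelial marker tested were called higher, and the markers' part in it was not tested.

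Macrophages from co-culture in DMEM differed from the day 0 libraries in 3 of 10 genes, where 15.2% of all genes were called, 8.47% higher and 6.71% lower. The median was -0.07 over the 10 genes and 0.00 over all genes. Co-culture lay wholly above day 0 in 1 of the 10 genes and wholly below in 3, against 15.6% and 16.1% of all genes. Psmb10 read 593, 573 and 506 in co-culture, below all day 0 libraries, a fall that was kept in all 6 fits that left out 1 library (log2 fold change -0.63 ± 0.14 (SE), adjusted p = 0.0056). Nlrc5 read 74.6, 73.2 and 59.6, above all day 0 libraries (log2 fold change 0.73 ± 0.18 (SE), adjusted p = 0.0126), and the call was lost without day 0 replicate 2 or 3 (adjusted p = 0.0544 and 0.0627). Tapbp read 1541, 1559 and 1419, below all day 0 libraries (log2 fold change -0.49 ± 0.16 (SE), adjusted p = 0.0477), and its call was lost in all 6 such fits, with adjusted p from 0.0559 to 0.175, with no filter (adjusted p = 0.0520) and with only these 2 groups (adjusted p = 0.0590). H2-K1 read 2966, 2953 and 3499 and H2-D1 16791, 18414 and 14113, and both overlapped with day 0 (adjusted p = 0.516 and 0.784). The other log2 fold changes were 0.04 for B2m, -0.24 for Tap1, 0.05 for Tap2, -0.28 for Psmb8 and -0.17 for Psmb9, with adjusted p from 0.219 to 0.957. Of 21 macrophage markers 4 were called higher and 1 lower. All 19 fibroblast markers tested were higher in co-culture, and the fibroblast part of the Psmb10 reads was at most 2.90%.

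None of the 10 genes was called between media in macrophages from co-culture. Between 4T1 CM and DMEM, edgeR called 0 of 10 where 10.3% of all genes were called, 5.68% higher and 4.63% lower. At an unadjusted p under 0.05 were 2315 of all 10088 genes and 1 of the 10. That gene was Psmb10, at 506, 431, 405 and 381 in 4T1 CM and 593, 573 and 506 in DMEM, with all libraries in 4T1 CM lower (log2 fold change -0.37 ± 0.13 (SE), adjusted p = 0.0871). DESeq2 called it (adjusted p = 0.0276), as did edgeR without replicate 1 in 4T1 CM (adjusted p = 0.0452). Intervals at 2 SE were -0.54 to 0.16 for H2-K1, -0.46 to 0.31 for H2-D1 and -0.11 to 0.41 for Psmb8. The other log2 fold changes were 0.12 for B2m, 0.22 for Tap1, 0.38 for Tap2, 0.21 for Tapbp, -0.31 for Psmb9 and 0.21 for Nlrc5, with adjusted p from 0.237 to 0.828. The libraries in 4T1 CM lay wholly above those in DMEM in 2 of the 10 genes and wholly below in 1, against 11.3% of all genes in each direction.

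Markers moved in this comparison too. Of 21 macrophage markers tested 9 were called lower and 1 higher in 4T1 CM, among the 4 defining ones 2 lower and 1 higher, and the list summed to 72131 to 86362 CPM in DMEM and 50264 to 63203 in 4T1 CM. Of 19 fibroblast markers 2 were called higher, with sums of 1324 to 4875 and 4153 to 13877 CPM. The 1 epithelial and the 1 T and NK marker tested were called higher, at log2 fold changes of 4.32 and 3.81 and at most 36.2 and 36.1 CPM. Their part in the members' values was not tested.

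**Figure D3:**
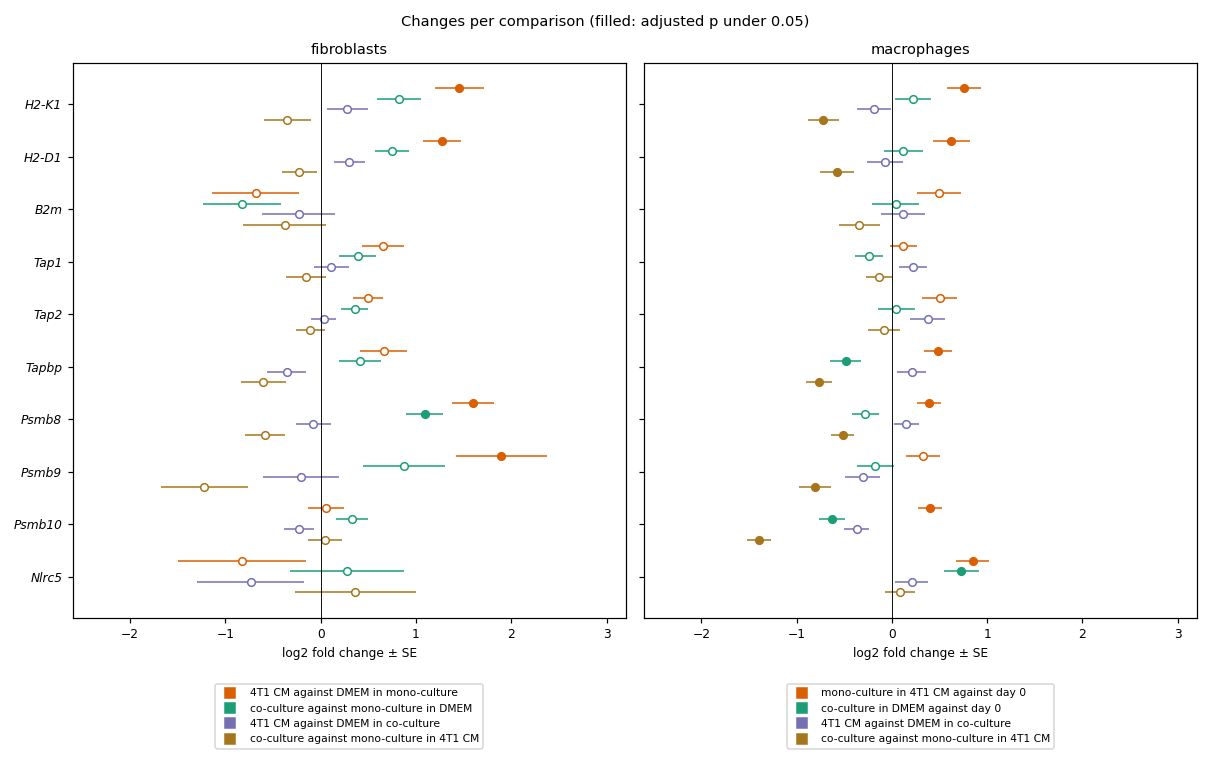
Log2 fold change ± SE (horizontal axes) of the 10 genes in 4 fibroblast comparisons (left, limma) and 4 macrophage comparisons (right, edgeR), with filled points for adjusted p under 0.05. In fibroblasts the filled points are all above 0, and in macrophages in 4T1 CM all 6 filled points for co-culture against mono-culture are below 0. Comparisons of 1 cell type share libraries.

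The levels of the leading members were ordered as follows. In fibroblasts the means of H2-K1 were 767 ± 29.3 alone in DMEM, 1374 ± 252 in co-culture in DMEM, 1715 ± 561 in co-culture in 4T1 CM and 2118 ± 369 alone in 4T1 CM (SD). The upper 3 groups overlapped with their neighbours. Psmb8 followed as 213 ± 27 alone in DMEM, 438 ± 107 in co-culture in 4T1 CM, 455 ± 54.1 in co-culture in DMEM and 653 ± 161 alone in 4T1 CM. The co-cultures overlapped with each other, and that in DMEM lay below both libraries alone in 4T1 CM. In macrophages Psmb10 went from 431 ± 54.3 in co-culture in 4T1 CM and 557 ± 45.5 in co-culture in DMEM to 869.6 ± 75.9 at day 0 and 1120.4 ± 76.8 alone in 4T1 CM.

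**Figure D4:**
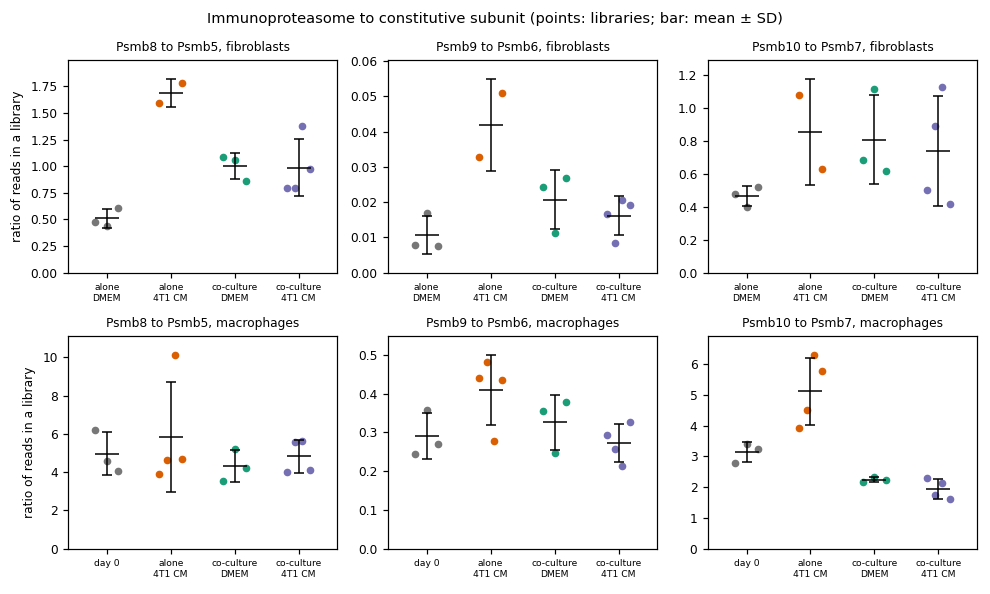
Ratio of the reads of each immunoproteasome subunit gene to those of its constitutive counterpart in each library (vertical axes, from 0), by group, with points for libraries and bars for the mean ± SD. In fibroblasts Psmb8 to Psmb5 was 0.510 ± 0.0902 alone in DMEM and 1.69 ± 0.130 alone in 4T1 CM, and in macrophages Psmb10 to Psmb7 was lowest in the co-cultures.

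The Psmb8 to Psmb5 ratio in fibroblasts was 0.998 ± 0.122 in co-culture in DMEM and 0.987 ± 0.272 in co-culture in 4T1 CM, between the mono-cultures. Psmb5 itself read 382, 536 and 361 alone in DMEM and 338 and 431 alone in 4T1 CM and was not called. In macrophages the Psmb10 to Psmb7 ratio was 3.15 ± 0.327 at day 0 and 2.25 ± 0.0816 in co-culture in DMEM (SD, n = 3 each).

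Other genes of the pathway were described from 5 lists. In fibroblasts grown alone, 4T1 CM raised 5 of 9 tested genes of the list of other class I and class I-like genes, where 6.36% of all genes rose, with a list median of 1.02. H2-M3, which encodes a heavy chain for formylated peptides, read 119.7, 116 and 131 in DMEM and 215 and 257 in 4T1 CM (log2 fold change 0.94 ± 0.15 (SE), adjusted p = 0.00172). H2-T23, which encodes the Qa-1 heavy chain, read 182, 152 and 152 against 369 and 289.6 (log2 fold change 1.02 ± 0.23 (SE), adjusted p = 0.012), and neither gene's groups overlapped. H2-Q6 and H2-Q10, further heavy chains, were low, at 1.69 ± 2.11 and 0.847 ± 1.06 in DMEM and 16.3 ± 2.06 and 15.2 ± 7.6 in 4T1 CM (adjusted p = 0.00797 and 0.00797). The uncertainty from similar copies and BALB/c alleles, given above for H2-K1 and H2-D1, holds for these heavy chains too. Whether their reads came from other class I genes was not tested.

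Of 21 tested regulators and interferon signaling genes, 6 rose and 1 fell in the same comparison, where 6.36% and 6.93% of all genes did, with a median of 0.49. Irf1, a transcription factor induced by interferon that acts on class I genes, read 105, 126 and 105 in DMEM and 203 and 201 in 4T1 CM (log2 fold change 0.85 ± 0.19 (SE), adjusted p = 0.00934). Socs1, an inhibitor of JAK signaling, read 143, 136 and 155 against 332 and 295 (log2 fold change 1.11 ± 0.19 (SE), adjusted p = 0.00267). Ifnar2 and Ifngr2, subunits of the type I and type II interferon receptors, rose by 1.52 ± 0.20 and 1.08 ± 0.26 on the log2 scale (adjusted p = 0.000431 and 0.017). Ifng and Ifnb1, which encode interferons, were not listed in either table. The 14 constitutive core subunits, 9 loading and trimming genes and 5 genes of the proteasome activator list gave 0 calls by limma. Their medians were -0.18, -0.21 and -0.07. At an unadjusted p under 0.05 were 2, 0 and 0 of them, against 3554 of all 12401 genes.

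In the other fibroblast comparisons these lists gave 1 call, Ifngr1 in co-culture in DMEM. Ifngr1 encodes a subunit of the interferon-gamma receptor and went from 121 ± 0.961 alone to 207 ± 7.52 in co-culture (log2 fold change 0.78 ± 0.16 (SE), adjusted p = 0.0381).

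In macrophages in 4T1 CM, 3 of the 5 genes in the proteasome activator list were lower in co-culture than in mono-culture. Of all genes, 11.9% were lower. Psme1 and Psme2, which encode the 2 subunits of the PA28 activator that binds immunoproteasomes, read 1744, 1496, 1706 and 1396 and 759.9, 869, 674 and 687 in mono-culture. In co-culture Psme1 read 1068, 932, 836 and 848 (log2 fold change -0.80 ± 0.13 (SE), adjusted p = 0.000273) and Psme2 452, 495, 352 and 456 (log2 fold change -0.78 ± 0.14 (SE), adjusted p = 0.000776), both without overlap. Pomp, the proteasome assembly factor, which was in the same list, also fell (log2 fold change -0.56 ± 0.14 (SE), adjusted p = 0.00791). Of 14 constitutive core subunits 0 were called by edgeR, with a median of -0.06. At an unadjusted p under 0.05 were 0 of them, against 3766 of all 10088 genes.

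Of the other lists in that comparison, 6 of 21 regulators fell and 0 rose, where 11.9% of all genes fell, with a median of -0.30. Irf1 read 363, 327, 409 and 295 in mono-culture and 122, 120.2, 145 and 88.9 in co-culture (log2 fold change -1.58 ± 0.16 (SE), adjusted p = 4.99e-06). Ciita, the class II transactivator, read 30.3, 15.3, 19.8 and 27.4 in mono-culture and was at 0 in 3 of the 4 co-culture libraries (adjusted p = 0.000384). Ifnar2 and Nfkb1, which encodes a subunit of NF-kappaB, fell at log2 fold changes of -0.88 ± 0.12 and -0.78 ± 0.14. H2-T23 read 1303, 1585, 1441 and 1238 against 395, 425, 446 and 664, without overlap (log2 fold change -1.54 ± 0.18 (SE), adjusted p = 1.68e-05), and was 1 of 2 class I-like genes that fell, beside 1 that rose, among 8 tested. Tapbpl, which encodes a tapasin-related peptide editor, and Calr, which encodes calreticulin, fell among 9 loading and trimming genes (log2 fold change -1.44 ± 0.24 and -0.70 ± 0.15).

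Against day 0, H2-T23 was lower in co-culture in DMEM, at 406, 407 and 507 against 812, 1207 and 819 (log2 fold change -1.09 ± 0.21 (SE), adjusted p = 0.00176). Irf1 was lower too, at 135, 149.6 and 164 against 228, 322 and 269.6 (log2 fold change -0.85 ± 0.18 (SE), adjusted p = 0.00386). So was Tapbpl (log2 fold change -1.50 ± 0.26 (SE), adjusted p = 0.000815), while Psme1 and Psme2 were not called (adjusted p = 0.296 and 0.2). If these libraries are day 0 cells, time in culture and the partner cannot be told apart. In that comparison 1 of 8 class I-like genes rose and 2 fell, and 2 of 21 regulators rose and 2 fell, the latter near the 8.47% and 6.71% of all genes. Mono-culture in 4T1 CM against day 0 gave 2 higher of 8 class I-like genes and 6 higher and 0 lower of 21 regulators, where 11.1% of all genes were higher and 10.9% lower. Among these regulators were Socs3 (4.82 ± 0.28), Stat3 (1.25 ± 0.15), Socs1 (1.97 ± 0.29) and Ifngr2 (0.62 ± 0.14). Socs3 encodes an inhibitor of cytokine signaling and Stat3 a transcription factor downstream of such receptors. Irf1 was not called there (log2 fold change 0.39 ± 0.16 (SE), adjusted p = 0.109). Between media in co-culture, 2 of 21 regulators were called, both higher in 4T1 CM, where 5.68% of all genes were. These were Socs1, at 33.7, 43.8, 38.2 and 46.3 against 5.92, 5.31 and 11.8, and Socs3 (0.90 ± 0.21).

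**Figure D5:**
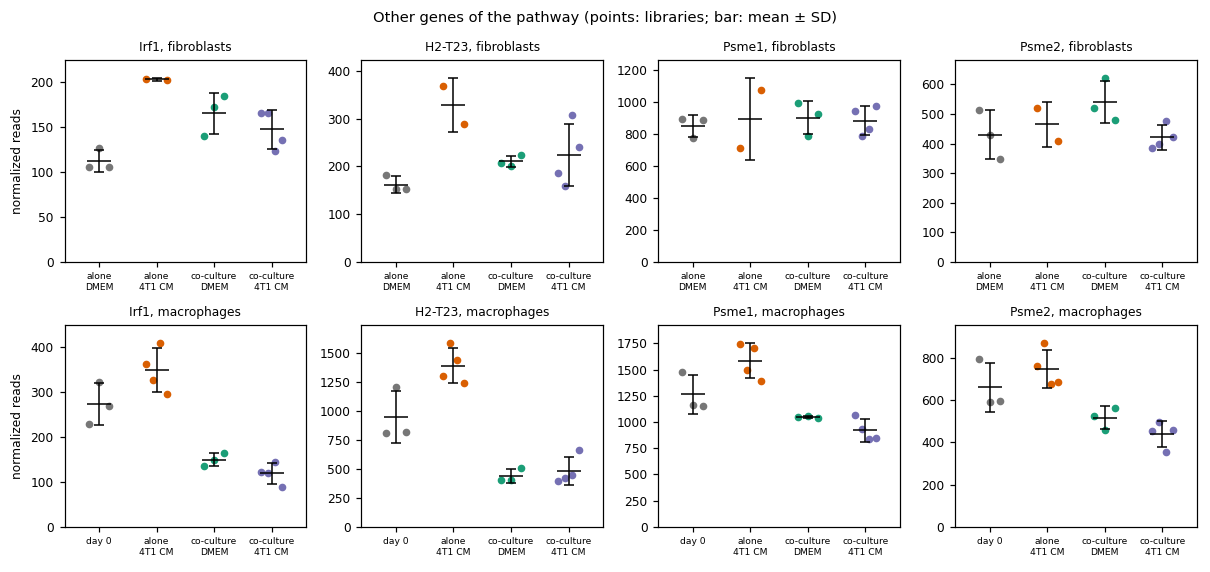
Normalized reads (vertical axes, from 0) of Irf1, H2-T23, Psme1 and Psme2 in fibroblast libraries (top) and macrophage libraries (bottom) by group, with points for libraries and bars for the mean ± SD. By their means, all 4 genes in macrophages were lower in both co-cultures than in mono-culture in 4T1 CM, and Irf1 and H2-T23 in fibroblasts were highest in mono-culture in 4T1 CM.

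The pattern of the 10 genes was taken as the median, over the members, of the log2 level centred on each gene's mean. It spanned 0.862 over the 12 fibroblast libraries, from -0.43 in a library grown alone in DMEM to 0.43 in 1 grown alone in 4T1 CM. It spanned 0.748 over the 14 macrophage libraries, from -0.25 in a co-culture in 4T1 CM to 0.50 in a mono-culture in 4T1 CM. Members differed in how closely they kept to it, by the root mean square distance of their centred log2 levels. In fibroblasts Tap2 was closest at 0.113, and B2m and Nlrc5 were farthest at 0.748 and 0.770. In macrophages H2-D1 was closest at 0.159, and Nlrc5 and Psmb10 were farthest at 0.417 and 0.432.

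Among 9315 other genes with a mean of at least 20 in fibroblasts, the nearest was Znfx1 at 0.120, followed by Tmem237, Ifi35, Nxt1, Psip1 and Pde6d at 0.152 to 0.165. Among 7896 in macrophages, the nearest was Atp13a1 at 0.101, followed by Fbxo6, Fbxo42, Unc50, Lsg1 and Cib1 at 0.114 to 0.139. No gene was in both sets of 6. In macrophages all 6 were closer to the pattern than any member, and in fibroblasts Znfx1 was closer than every member but Tap2. The pattern is thus not particular to the members. These distances describe the libraries and carry no test.

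Some members overlap other annotated genes. Psmb9 and Tap1 overlap by 212 bases on opposite strands, at the starts and away from the 3' ends that were sequenced. B2m overlaps Patl2, at most 4.64 normalized reads in any macrophage library and not listed for fibroblasts. Tapbp overlaps Zbtb22, a gene on the same strand, by 3422 bases, at up to 135 in fibroblasts and 108 in macrophages. Psmb8 and Psmb10 overlap the antisense genes Gm20496 and Gm16156, which were not listed for either cell type. The labels do not say whether counting used the strand, so reads of a gene and of an antisense partner cannot be told apart.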

How the data were processed

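The 26 libraries held 3' end messenger RNA sequence of fibroblasts (12) and macrophages (14). Build mm10, STAR 2.4.2a and HTSeq are named, without roles, in the submitters' processing notes; the counting settings are not given in the sources used here. For macrophages the authors deposited raw counts, and for both cell types normalized signal, which is the reads of a gene divided by 1 size factor per library. All values of the normalized tables came out as whole reads within 0.001.

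Fibroblasts were tested with limma 3.58.1 on log2(value + 1), keeping genes with at least 5 in 2 libraries, and macrophages with edgeR 4.0.16 (quasi-likelihood, TMM, filterByExpr) on raw counts. R 4.3.3 was used, and DESeq2 1.42.0 was an alternative. Each cell type had 1 fit, without covariates, and two-sided p-values were adjusted by Benjamini-Hochberg over all its genes. For macrophages the SE was derived from the test, as the size of the log2 fold change over the square root of its F statistic, and the intervals rest on it. Fold changes of low genes are understated by the pseudocount. The fits were tested on simulated data. Besides the 10 members, the text names up to 4 genes per list by smallest adjusted p and the 6 genes most like the members' median profile (mean of at least 20). Replicates are separate samples by the labels, which state separate animals for fibroblasts only, so the macrophage p-values may measure technical spread. No pair agreed within sampling noise. Same-numbered macrophages from both co-cultures correlated at 0.185 to 0.416, above 0.1 in 3 of 3 pairs, a pairing read from the data and not from the labels. Members and lists were chosen with earlier results of these data known.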

Additional observations from a re-analysis of the deposited data

Results flagged for a closer look

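The 10 genes in the 3 groups of 4 libraries gave 30 sets, and in 3 of them 1 library stood apart from the others, by the ratio of its gap to the nearest library over the range of the set. Chance flags about 1 in 20 such sets. In macrophages from co-culture in 4T1 CM, replicate 4 stood above the other 3 libraries for Tap1 (250 against 201 to 204, ratio 0.931) and for Tapbp (2210.2 against 1554 to 1595, ratio 0.937). In macrophages grown alone in 4T1 CM, replicate 3 was above the others for Tap2 (286 against 192 to 198, ratio 0.938).

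In fibroblasts the interaction of co-culture and 4T1 CM for Psmb8 was -1.67 on the log2 scale and passed the test of limma (adjusted p = 0.0342). It did not pass with edgeR on recovered reads (adjusted p = 0.0548), with the replicate block (adjusted p = 0.0534) or in 9 of the 12 fits that left out 1 library (adjusted p up to 0.129).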

How the results depend on the processing

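Of the 10 members, the number called in fibroblasts stayed at 1, 0, 4, 0 and 1 (co-culture in DMEM, co-culture in 4T1 CM, 4T1 CM in mono-culture, 4T1 CM in co-culture and interaction) with pseudocounts of 0.5 and 5, with no filter and with quantile normalization. For co-culture in DMEM it was 3 with only the groups compared and 0 to 1 leaving out each library in turn. For 4T1 CM it was 3 to 5 in mono-culture and 0 to 1 in co-culture leaving out libraries, and for co-culture in 4T1 CM 0 throughout. The interaction gave 0 with edgeR on recovered reads and 0 to 1 leaving out libraries. In macrophages, 4T1 CM against DMEM in co-culture gave 0, 1 with DESeq2 and 0 to 1 leaving out libraries. In 4T1 CM, co-culture against mono-culture gave 6, and 5 to 6 leaving out libraries. Co-culture in DMEM against day 0 gave 3, and 1 to 2. Mono-culture in 4T1 CM against day 0 gave 6, and 2 to 5. The cause of these moves was not tested, and no called member changed sign.

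With the replicate number as a replicate block, the interaction gave 0 (Psmb8, adjusted p = 0.0534) and macrophages in 4T1 CM against day 0 gave 3 (H2-K1, Psmb10 and Nlrc5). Same-numbered libraries correlated above 0.1 in 2 of 15 fibroblast and 8 of 19 macrophage pairs, and in every pair of 1 comparison, between macrophages from both co-cultures (3 of 3). There the numbers were taken to pair the libraries. The replicate block gave 0 of 10 members for it and 1002 genes in all. The block in a fit with only these groups, an alternative added after seeing the data, gave 0 members and 1241 genes. The other comparisons were not taken as paired.

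Over all genes, co-culture in DMEM in fibroblasts gave 124 calls and 211 with only the groups compared, 4T1 CM in co-culture 725 and 437, and the interaction 18, 1 with the block and 10 with edgeR on recovered reads. Co-culture in 4T1 CM in fibroblasts gave 3 calls, 5 with a pseudocount of 0.5, and 0 with a pseudocount of 5, quantile normalization, the block, edgeR or only the groups compared. Leaving out each library in turn gave 18 to 79 calls for co-culture in DMEM, 0 to 297 for co-culture in 4T1 CM, 537 to 1425 for 4T1 CM in mono-culture (1648 with all libraries), 258 to 818 for 4T1 CM in co-culture and 2 to 197 for the interaction. In macrophages it gave 540 to 1040 for 4T1 CM in co-culture (1040 with all libraries) and 1000 to 1288 for co-culture in DMEM against day 0 (1531 with all libraries). Where a gene had few reads, as Nlrc5 and Psmb9 in fibroblasts, depth limits what can be seen.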
